A study of Mus musculus with 144 samples.

Results

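The nuclear and the total RNA of wild-type mouse liver were compared in 72 of the 144 libraries of a series on polyadenylation site use over the day. These are the 36 libraries labelled nuclear RNA and the 36 libraries labelled total RNA, chosen by those labels alone. All came from livers of male wild-type C57BL/6J mice under 12 h of light and 12 h of darkness with free access to food. Each fraction was sampled at zeitgeber time (ZT, hours after lights on) 2, 6, 10, 14, 18 and 22, with 6 replicates at each time. The labels give no further allele, agent or age for these groups. Nuclei came from frozen tissue, homogenized, washed in hypotonic buffer and spun on a sucrose cushion, whereas total RNA was taken from the tissue with TRIzol. Both are whole-liver preparations, so all liver cell types are pooled in each library. Libraries were made with a kit that primes on poly(A) and reads the end of the transcript next to it. Whether each replicate is a separate mouse, and whether a nuclear and a total library of the same number share a liver, is not stated, so p-values measure the spread between these samples, which may be technical. Many same-numbered libraries resembled each other, as given in the last section. The main tests did not pair them.

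An mRNA is capped, spliced and polyadenylated in the nucleus and then exported, and its level in the whole tissue reflects how long it lasts in the cytoplasm as well as how fast it is made. Nuclear poly(A) RNA therefore holds young transcripts, transcripts that stay in the nucleus such as several long noncoding RNAs, and by-products of processing such as small nucleolar RNA (snoRNA) precursors cut from introns. Liver mRNA is dominated by messages for secreted plasma proteins and for metabolism, and many messages of the ribosome and of mitochondria are long-lived in the cytoplasm.

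The nuclear libraries held 1662449 to 6620128 counts in genes (median 3993642) and the total libraries 5316601 to 9831142 (median 7749864.5). On the 2000 most variable genes the leading principal component carried 65.8% of the variance and separated the fractions, with nuclear libraries at 19.0 to 62.7 and total libraries at -54.7 to -34.2. Total replicate 4 at ZT2 stood apart from its group, with a median absolute log2 distance of 0.559 from the other 5 libraries. The next farthest total library was at 0.296, and the farthest nuclear library, replicate 1 at ZT14, was at 0.562 with the next at 0.498. Replicate 5 at ZT22 held Xist, the X-inactivation RNA that males lack in most tissues, at 4363 CPM (counts scaled to the library total) in its nuclear and 408 in its total library, against at most 5.67 in the other 70. That pair therefore went against the male label, and the Xist difference rests on it. Counts were repeated without the library of total replicate 4 at ZT2, without the Xist pair, and without 2 shallow nuclear libraries at ZT6. No 2 libraries of a group were identical.

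In all, 11864 genes averaged 10 or more counts over the libraries and were tested with edgeR's quasi-likelihood test, with Benjamini-Hochberg adjustment over all of them at 0.05. Of these, 4941 (41.6%) were higher in nuclear RNA and 5000 (42.1%) were lower. At least 2-fold, 2140 (18.04%) were higher and 2161 (18.2%) lower. Every one of the 36 nuclear libraries lay above every total library for 417 genes (3.51%), and below for 688 (5.80%). Without total replicate 4 at ZT2 these were 432 and 749. In either direction 83.8% of genes were called, so a call by itself is near the background here, and the size of the difference and the overlap of the libraries carry more. Replicates 1 to 3 and 4 to 6, fitted apart, called 7977 genes the same way in both and 16 in opposite ways, of 11566 genes tested in both. The values are relative within each library: they say which transcripts made up more of nuclear than of total RNA, not how much RNA a nucleus held. Levels below are TMM-scaled CPM, given as the lowest, the median and the highest of 36 libraries, and log2 differences are nuclear minus total, averaged over the 6 times.

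**Figure D1:**
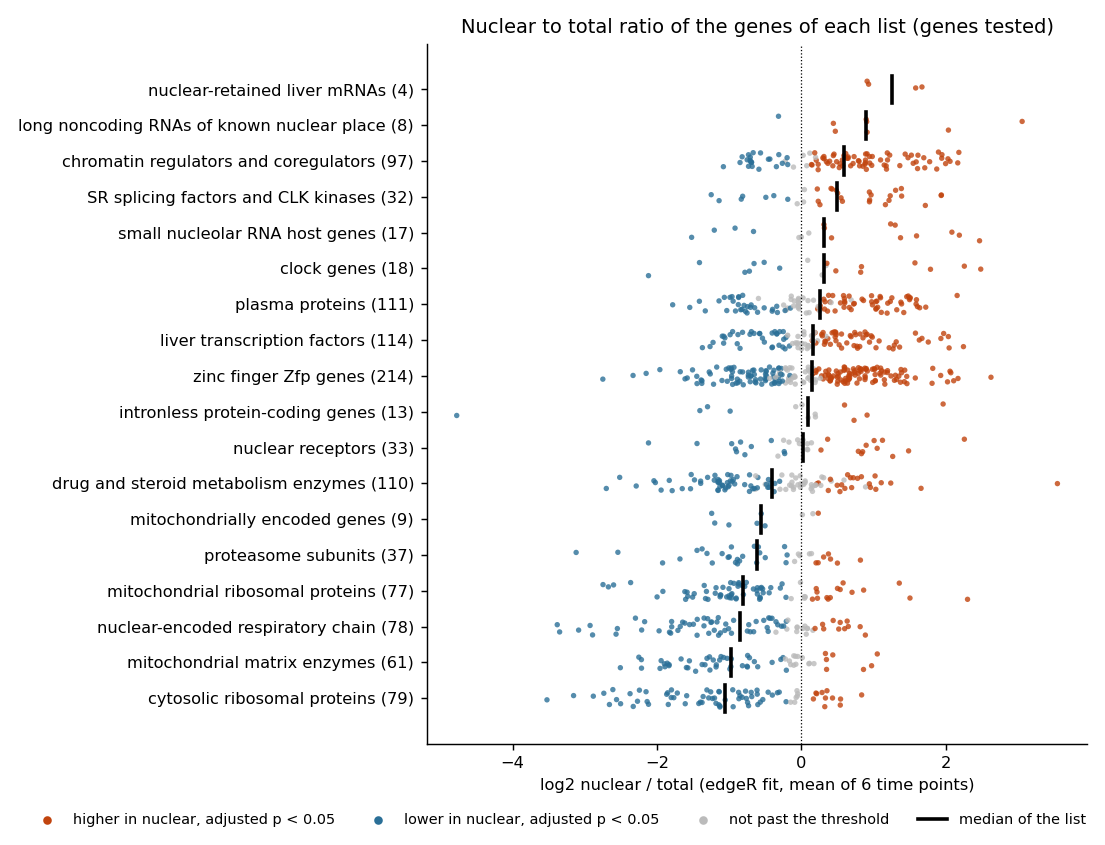
Log2 nuclear to total ratio (x axis, edgeR fit) of each tested gene in 18 lists (y axis, number tested in brackets), with a black bar at each list's median. Lists of ribosomal, respiratory chain and matrix genes sit to the left of 0, with medians of -1.05, -0.84 and -0.97, and chromatin regulators to the right, with a median of 0.59.

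Long noncoding RNAs were more often higher than lower in nuclear RNA, and Neat1, the scaffold of nuclear paraspeckles, stood 8.34-fold higher. Neat1 read 360.3, 1334 and 4067 CPM in nuclear and 87.8, 165 and 312 in total RNA (log2 difference 3.06 ± 0.14 (SE), edgeR adjusted p = 2.65e-31). Every nuclear library lay above every total library. Malat1, an abundant RNA of nuclear speckles, did not share this at the level of the whole gene: it read 565, 1288 and 3593 in nuclear and 393, 1875 and 2727 in total RNA (log2 difference -0.32 ± 0.12 (SE), edgeR adjusted p = 0.0155). The fractions overlapped, and the call for Malat1 was lost in 5 of the 13 alternatives run, where the log2 difference ran from -0.37 to -0.16. Of 12 long noncoding RNAs listed for a known nuclear place 8 were tested, of which 7 were higher and 1, Malat1, lower, with a median of 0.90. Kcnq1ot1, the antisense RNA of the imprinted Kcnq1 domain, was named after its value was seen and read 27.8, 98.4 and 218 against 9.34, 22.4 and 64.1 (log2 difference 2.04 ± 0.14 (SE), edgeR adjusted p = 4.52e-22).

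Over the RefSeq class of long noncoding RNAs 243 genes were tested, of which 134 were higher and 58 lower, with a median of 0.38 beside -0.01 over all genes. At least 2-fold higher were 81 of them and at least 2-fold lower 30. Among those averaging 100 or more counts with the same direction at all 6 times, the largest rise was in Ctcflos, transcribed antisense to Ctcfl, at 14.4, 67.8 and 204 in nuclear and 1.80, 5.86 and 19.3 in total RNA (log2 difference 3.64 ± 0.17 (SE), edgeR adjusted p = 6.44e-29), with overlap. After it, 2900060B14Rik read 174, 532 and 1947 against 18.2, 63.5 and 144 (log2 difference 3.26 ± 0.18 (SE), edgeR adjusted p = 3.92e-25), with no overlap. In the opposite direction, Gas5, a snoRNA host whose spliced RNA is turned over during translation, read 39.7, 66.1 and 106 in nuclear and 135, 190.3 and 278 in total RNA (log2 difference -1.52 ± 0.07 (SE), edgeR adjusted p = 7.60e-32). All nuclear libraries lay below all total libraries for Gas5. With the same limits the largest fall was in 1500017E21Rik, at 8.42 against 68.3 in the medians (log2 difference -2.69 ± 0.24 (SE), edgeR adjusted p = 5.36e-16), with overlap. Whether the counts used strand is not given in the sources used here, so reads of an antisense RNA and of its partner may not be told apart.

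Genes of small and other RNAs had the highest median of the RefSeq classes. Of 65 tested, 59 were higher and 5 lower, 57 at least 2-fold higher, and the median was 3.51. For 20 of the 65 (30.8%) every nuclear library lay above every total library, where 3.51% of all genes did so. Mature snoRNAs carry no long poly(A) tail. Snora81, a box H/ACA snoRNA that guides pseudouridylation of ribosomal RNA, lies in an intron of Eif4a2, a translation initiation factor. Snora81 read 176, 608 and 2542 in nuclear and 14.1, 40.7 and 77.0 in total RNA (log2 difference 4.10 ± 0.18 (SE), edgeR adjusted p = 3.64e-31). Snora30 read 46.0, 121 and 447 against 1.002, 7.29 and 22.7 (log2 difference 4.06 ± 0.22 (SE), edgeR adjusted p = 1.71e-25), and Snord89 read 318, 1279 and 8556 against 65.4, 134 and 321 (log2 difference 3.76 ± 0.22 (SE), edgeR adjusted p = 4.23e-24). The fractions did not overlap for Snora81 and Snora30, and overlapped for Snord89. Mir703 was the member with the largest fall, at 11.5, 46.1 and 84.1 against 236, 366 and 521 (log2 difference -2.99 ± 0.10 (SE), edgeR adjusted p = 1.93e-40), with every nuclear library below every total library. Host genes of snoRNAs were mixed: of 17 tested, 10 were higher, among them Snhg20 (2.47 ± 0.09) and Snhg1 (1.24 ± 0.16), and 4 lower, among them Gas5. Their summed share of library counts was 0.0400 ± 0.0106% in nuclear and 0.0395 ± 0.00492% in total RNA (mean ± SD, n = 36, permutation test, adjusted p = 0.816).

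Gm42418, a locus that overlaps a copy of the ribosomal RNA precursor gene, took on average more of the nuclear libraries than any other single row, though not in each of them. It was named after its values were seen. Gm42418 held 9.62 ± 7.23% of a nuclear library (mean ± SD, range 3.32 to 31.0%) and 1.10 ± 0.407% of a total library (range 0.392 to 1.97%). No nuclear library was as low as any total library. Gm26917, also named after its values were seen, read 454, 1427 and 3890.4 against 3.41, 54.5 and 123 CPM (log2 difference 4.74 ± 0.17 (SE), edgeR adjusted p = 3.00e-37). With Gm42418 classed as a pseudogene, the pseudogene class held 11.9 ± 7.04% of nuclear and 5.45 ± 0.426% of total counts. With Gm42418 left out of both the class and the total, that difference turned to -1.84 percentage points. The share of protein-coding genes, which was 1.44 points lower with it (adjusted p = 0.243, permutation test), was then 5.37 points higher. By gene, 401 of 556 tested pseudogenes were lower in nuclear RNA and 97 higher, with a median of -1.06. Among those averaging 100 or more counts with the same direction at all 6 times, the largest fall was in Rps6-ps1, which read 1.96, 7.44 and 15.3 against 40.5, 151 and 202 (log2 difference -4.23 ± 0.12 (SE), edgeR adjusted p = 1.31e-43). Many of these are processed copies of ribosomal protein genes that share sequence with their parents, so how the authors' counting divided reads between copy and parent is uncertain.

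**Figure D2:**
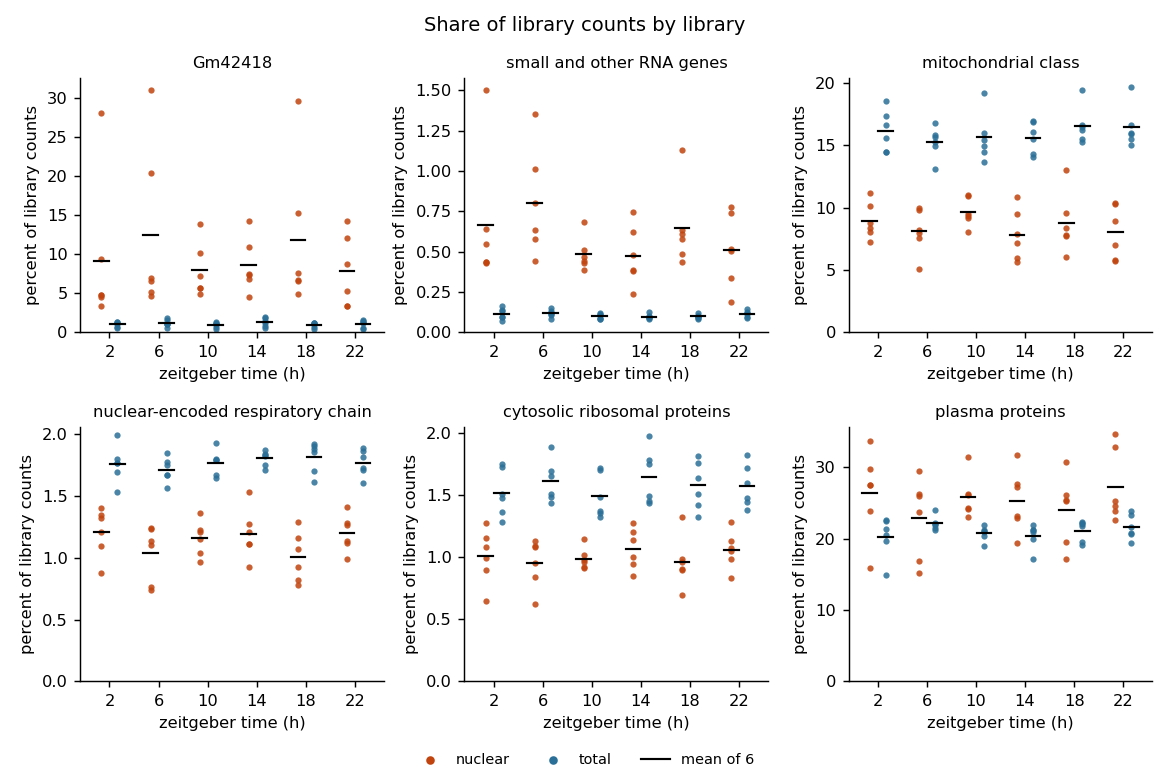
Percent of library counts (y axes, from 0) held by Gm42418, by 2 RefSeq classes and by 3 lists in each library, by zeitgeber time (x axis), with bars at the mean of 6. The mitochondrial class and the small RNA class do not overlap between the fractions, and the Gm42418 share runs from 3.32% to 31.0% in nuclear libraries.

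Chromatin regulators were more often higher than lower in nuclear RNA. Of 99 chromatin regulators and coregulators 97 were tested, of which 69 were higher and 22 lower, 27 at least 2-fold higher and 1 at least 2-fold lower, with a median of 0.59. For 19 of them every nuclear library lay above every total library, and for none below, where 3.51% and 5.80% of all genes did so. Hdac7, a histone deacetylase, read 34.8, 65.0 and 105 against 9.67, 13.8 and 20.6 (log2 difference 2.18 ± 0.07 (SE), edgeR adjusted p = 3.82e-40). The histone methyltransferases Kmt2a and Kmt2d, named after their values were seen, differed by 1.88 ± 0.08 and 1.90 ± 0.10 on the log2 scale (edgeR adjusted p = 1.05e-33 and 9.80e-28). Kmt2a read 69.0, 107 and 193 in nuclear and 18.6, 30.6 and 41.7 in total RNA. Smarca2, an ATPase of the SWI/SNF remodelling complex and the member with the most counts, read 133, 208 and 346 against 67.6, 158 and 253 (log2 difference 0.44 ± 0.07 (SE), edgeR adjusted p = 1.72e-08), with overlap. Arid1b, another subunit of that complex, was lower, at 3.96, 9.99 and 16.9 against 14.6, 19.6 and 50.3 (log2 difference -1.08 ± 0.08 (SE), edgeR adjusted p = 8.08e-20). Thus the list moved mostly, but not wholly, in 1 direction.

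SR splicing factors, which bind exons and recruit the spliceosome, and the CLK kinases that phosphorylate them gave 22 higher and 7 lower of 32 tested, with a median of 0.50. Srsf5 read 132, 295 and 546 in nuclear and 58.4, 82.4 and 116 in total RNA (log2 difference 1.94 ± 0.09 (SE), edgeR adjusted p = 3.63e-32), with no overlap. The site table divides this difference: sites of Srsf5 more than 1000 bp before the annotated gene end differed by 3.83 (log2 of the mean levels), and sites at the end by -0.29. Srrm2, a scaffold of nuclear speckles, read 265, 442 and 1029 against 85.6, 210.4 and 269 (log2 difference 1.22 ± 0.10 (SE), edgeR adjusted p = 7.20e-18). Srsf10 was the lowest member, at 5.77, 10.5 and 17.0 against 18.8, 25.04 and 33.9 (log2 difference -1.25 ± 0.08 (SE), edgeR adjusted p = 7.61e-25), and every nuclear library lay below every total library.

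Secreted plasma proteins, the largest output of hepatocytes, did not move as a block. Of 112 listed genes 111 were tested, of which 55 were higher in nuclear RNA and 32 lower, 27 at least 2-fold higher and 7 at least 2-fold lower, with a median of 0.25. The calls were 49.5% and 28.8% of the list, beside 41.6% and 42.1% of all genes. Apoe, the apolipoprotein of remnant lipoproteins, had the most counts and read 25214, 52229 and 130589 in nuclear and 4432, 23988 and 33798 in total RNA (log2 difference 1.32 ± 0.12 (SE), edgeR adjusted p = 2.83e-16). The fractions overlapped at their edges, and the lowest total value was that of replicate 4 at ZT2, at 4432 CPM where the other 35 began at 18022. Alb, serum albumin, went the other way, at 8157, 19442 and 40365 against 13534, 49160.3 and 68896 (log2 difference -1.33 ± 0.11 (SE), edgeR adjusted p = 1.78e-18), with overlap. Agt, angiotensinogen, had the largest rise, at 292, 996 and 2329.6 against 143, 221 and 596 (log2 difference 2.16 ± 0.13 (SE), edgeR adjusted p = 6.05e-25). F2, prothrombin, had the largest fall, at 130.4, 418 and 1154 against 1221, 1529.6 and 1827 (log2 difference -1.78 ± 0.11 (SE), edgeR adjusted p = 7.26e-25), with every nuclear library below every total library. F7, another clotting factor, was named after its value was seen and read 130.2, 211 and 424 against 24.3, 70.0 and 98.0 (log2 difference 1.72 ± 0.10 (SE), edgeR adjusted p = 3.33e-27). Apoa1, the main protein of high-density lipoprotein, read 9530.2 against 3644 in the medians (log2 difference 1.503 ± 0.11 (SE), edgeR adjusted p = 1.11e-20), and Ttr, transthyretin, read 4748 against 10594 (log2 difference -0.94 ± 0.12 (SE), edgeR adjusted p = 2.23e-11). Thus clotting factors stood on both sides. Summed, the list took 25.3 ± 4.80% of nuclear and 21.05 ± 1.73% of total counts (mean ± SD, n = 36 each, permutation test, adjusted p = 3.20e-05), with ranges of 15.2 to 34.6% and 14.9 to 24.0%. The list median was 0.42 within replicates 1 to 3 but 0.06 within replicates 4 to 6, near the median of 0.003 over all genes there. By time it ran from 0.006 at ZT6 to 0.40 at ZT2.

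Messages for mitochondrial proteins were on the total side. Of 78 tested genes for nuclear-encoded subunits of the respiratory chain, 55 were lower in nuclear RNA and 11 higher, 37 at least 2-fold lower and none at least 2-fold higher, with a median of -0.84. For 27 of them (34.6%) every nuclear library lay below every total library, and for none above, where 5.80% and 3.51% of all genes did so. Cox7b, a subunit of cytochrome c oxidase, read 11.1, 24.3 and 55.7 in nuclear and 211, 258 and 469 in total RNA (log2 difference -3.38 ± 0.11 (SE), edgeR adjusted p = 2.29e-40). Atp5g3, which forms the rotating ring of the ATP synthase, had the most counts and read 107, 424 and 1009 against 1130.5, 1634 and 1882 (log2 difference -1.83 ± 0.11 (SE), edgeR adjusted p = 2.05e-24). Neither overlapped. Ndufa3, a subunit of complex I, was the highest member, at 154, 298 and 556 against 49.3, 172 and 219 (log2 difference 0.89 ± 0.09 (SE), edgeR adjusted p = 7.55e-15). Summed, the list took 1.13 ± 0.193% of nuclear and 1.77 ± 0.107% of total counts (permutation test, adjusted p = 1.68e-05).

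Proteins of the mitochondrial ribosome and enzymes of the matrix gave the same picture. Of 77 tested mitochondrial ribosomal proteins 57 were lower and 15 higher, with a median of -0.80. Mrpl39 read 1.28, 6.04 and 14.5 against 22.3, 40.3 and 98.8 (log2 difference -2.75 ± 0.12 (SE), edgeR adjusted p = 4.32e-32), and Mrps18a, at the other end, read 41.5, 70.4 and 121 against 8.82, 15.02 and 22.7 (log2 difference 2.30 ± 0.08 (SE), edgeR adjusted p = 2.94e-37). Neither overlapped. Of 61 tested matrix enzymes 42 were lower and 7 higher, 28 at least 2-fold lower and 1 at least 2-fold higher, with a median of -0.97. Mut, methylmalonyl-CoA mutase, read 13.02, 24.5 and 50.9 against 107, 143 and 254 (log2 difference -2.51 ± 0.08 (SE), edgeR adjusted p = 1.23e-40). Aldh2, the main enzyme of acetaldehyde oxidation, read 470.3, 598 and 873 against 906, 1317 and 2374 (log2 difference -1.18 ± 0.07 (SE), edgeR adjusted p = 5.99e-26). For both, every nuclear library lay below every total library. Bckdha, a subunit of the branched-chain keto acid dehydrogenase, was the exception at 2-fold, at 42.7, 81.7 and 149.8 against 16.2, 39.5 and 59.4 (log2 difference 1.05 ± 0.09 (SE), edgeR adjusted p = 1.46e-18). Matrix enzymes held 0.737 ± 0.0868% of nuclear and 1.21 ± 0.0731% of total counts, with no overlap between the fractions.

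Transcripts of the mitochondrial genome are made and kept inside the organelle. The RefSeq mitochondrial class held 8.57 ± 1.84% of counts in nuclear libraries (range 5.12 to 13.04%) and 15.97 ± 1.51% in total libraries (range 13.1 to 19.7%), with no overlap. The nuclear libraries may therefore hold RNA from outside nuclei, so their levels are not those of pure nuclei. How much other cytoplasmic RNA they held was not tested. By gene the class was divided: of 26 tested 13 were higher and 9 lower, with a median of 0.22. All of the 13 but mt-Co1 were transfer RNA genes, while the ribosomal RNAs mt-Rnr1 and mt-Rnr2, named after their values were seen, differed by -1.82 and -0.90. Of the 13 mitochondrially encoded proteins 9 were tested, of which 6 were lower, 1 higher and 2 not called, with a median of -0.55. mt-Nd4, a subunit of complex I, read 9977, 24587 and 51414 against 46318, 62432 and 99692 (log2 difference -1.24 ± 0.12 (SE), edgeR adjusted p = 7.86e-16). mt-Co1, a subunit of cytochrome c oxidase, read 713, 1948 and 5923 against 698, 1644 and 2887 (log2 difference 0.24 ± 0.11 (SE), edgeR adjusted p = 0.0428). The call for mt-Co1 was lost in 4 of the 13 alternatives run, where the log2 difference ran from 0.12 to 0.25. Both overlapped between the fractions.

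Proteins of the cytosolic ribosome are encoded by messages with a terminal oligopyrimidine tract at the cap, through which their translation is controlled together. Of 79 tested, 62 were lower in nuclear RNA and 11 higher, 40 at least 2-fold lower and none at least 2-fold higher, with a median of -1.05. For 19 (24.1%) every nuclear library lay below every total library, where 5.80% of all genes did so. Rps7 read 6.17, 16.1 and 30.1 in nuclear and 157, 189 and 260.5 in total RNA (log2 difference -3.52 ± 0.11 (SE), edgeR adjusted p = 4.48e-42). Rplp1, a protein of the ribosomal stalk and the member with the most counts, read 337, 820.4 and 1401 against 598, 811 and 1100.2 (log2 difference -0.06 ± 0.09 (SE), edgeR adjusted p = 0.557), which did not pass the threshold. The fractions did not overlap for Rps7 and overlapped for Rplp1. The list held 1.01 ± 0.168% of nuclear and 1.57 ± 0.181% of total counts (permutation test, adjusted p = 1.68e-05). Near-identical pseudogenes share reads with these genes, so single members are uncertain.

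The sequence around the start of transcription was read from RefSeq (GRCm38.p6) for 68 starts of 58 of these genes, as 20 bases before and 20 bases from the start. Shown are 6 of the 19 members that hold the pyrimidine run CTTTC there on the gene's strand, given in capitals: 4 that were lower in nuclear RNA and the 2 that were higher, chosen after their values were seen.
Rpl5: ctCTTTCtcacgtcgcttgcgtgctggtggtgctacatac
Rpl4: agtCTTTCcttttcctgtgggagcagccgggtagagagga
Rpl7a: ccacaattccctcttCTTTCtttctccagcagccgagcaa
Rps15a: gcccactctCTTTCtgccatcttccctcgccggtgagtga
Rpl18: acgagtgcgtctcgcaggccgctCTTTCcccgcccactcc
Fau: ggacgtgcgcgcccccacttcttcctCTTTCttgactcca
These windows lie at chr5:107900508-107900547 (+), chr9:64173367-64173406 (+), chr2:26910787-26910826 (+), chr7:118116128-118116167 (-), chr7:45718051-45718090 (+) and chr19:6057927-6057966 (+). CTTTC stood in 27.9% of the 68 windows, in 5.49% of all 32851 RefSeq start windows, in 4.35% of 69 for the respiratory chain and in none of 33 for the proteasome. Its reverse complement, GAAAG, stood in 5.88% of the ribosomal windows and 4.86% of all. Genes with the run stood on both sides: Rpl5 read 2.75, 7.18 and 13.4 in nuclear and 33.1, 53.3 and 68.4 in total RNA (log2 difference -2.88 ± 0.09 (SE), edgeR adjusted p = 1.96e-42), whereas Fau read 166, 229 and 444 against 35.1, 160.0 and 253 (log2 difference 0.54 ± 0.08 (SE), edgeR adjusted p = 7.43e-09). Rpl4 and Rps15a differed by -2.74 and -1.14, and Rpl18 by 0.29. Counted from the annotated start, the run begins at base -18 in Rpl5, -17 in Rpl4, -5 in Rpl7a and -11 in Rps15a, so before it. In Rpl18 and Fau it begins after the start, at bases 4 and 7. Members not shown, such as Rpl15 (base 5, log2 difference -2.37) and Rpl35a (base 3, -1.59), also held it after the start and were lower. Members with and without the run were not compared. A match is a description of these letters, not of a site in use.

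Subunits of the proteasome, the protease complex for ubiquitin-tagged proteins, were also on the total side, with 25 of 37 lower and 7 higher and a median of -0.62. The calls were 67.6% and 18.9% of the list, beside 42.1% and 41.6% of all genes. Psma4 read 4.72, 12.7 and 28.3 against 60.7, 107 and 142 (log2 difference -3.12 ± 0.12 (SE), edgeR adjusted p = 1.19e-35), and Psma7, with the most counts, read 93.0, 148 and 239 against 268, 347 and 482 (log2 difference -1.31 ± 0.07 (SE), edgeR adjusted p = 4.42e-28). Neither overlapped. Psmd9, an assembly chaperone, was the highest member, at 26.2, 48.3 and 99.9 against 14.4, 27.0 and 44.9 (log2 difference 0.82 ± 0.09 (SE), edgeR adjusted p = 4.68e-14).

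**Figure D3:**
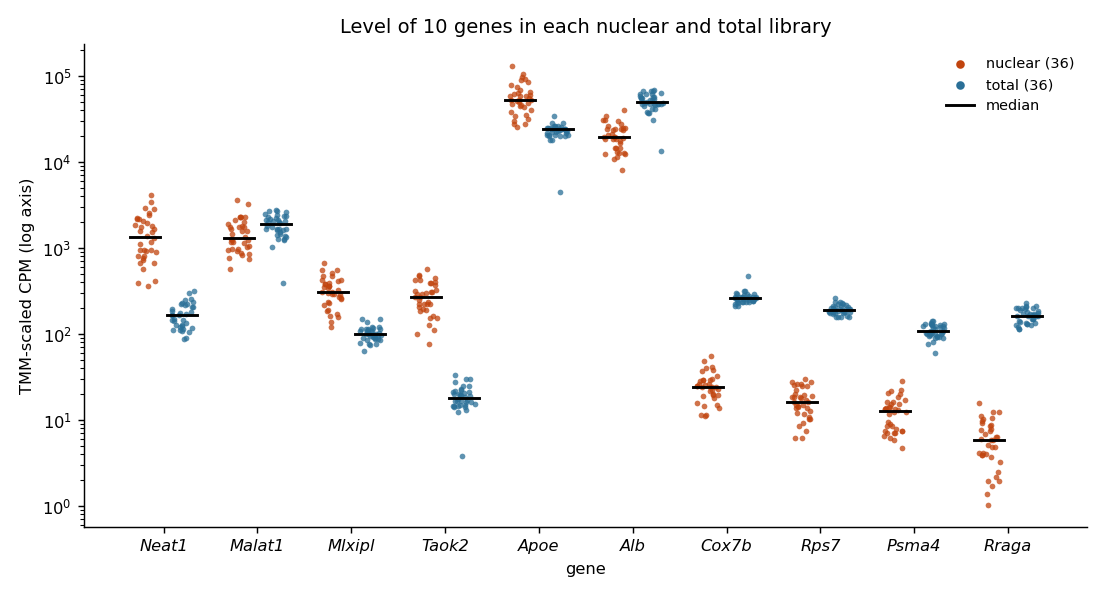
TMM-scaled CPM (y axis, log scale) of 10 genes (x axis) in each of the 36 nuclear and 36 total libraries, with bars at the medians. Neat1 and Taok2 lie wholly above and Cox7b, Rps7, Psma4 and Rraga wholly below in nuclear RNA, while Malat1, Mlxipl, Apoe and Alb overlap.

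Transcription factors were divided. Of 114 tested liver transcription factors 54 were higher and 34 lower, with a median of 0.17. Nrf1, a regulator of mitochondrial genes, read 12.5, 31.0 and 47.7 in nuclear and 3.51, 6.15 and 10.1 in total RNA (log2 difference 2.25 ± 0.10 (SE), edgeR adjusted p = 5.85e-32), with no overlap. Hif1a, the oxygen-regulated factor, read 3.43, 7.86 and 17.5 against 15.3, 21.3 and 29.6 (log2 difference -1.37 ± 0.09 (SE), edgeR adjusted p = 8.70e-24). Zbtb20, a repressor with high counts in liver, read 414, 716 and 1408 against 368, 521 and 768 (log2 difference 0.45 ± 0.08 (SE), edgeR adjusted p = 8.75e-07). Both overlapped. Of 214 tested zinc finger Zfp genes 102 were higher and 75 lower, from Zfp282 (2.63 ± 0.09) to Zfp120 (-2.15 ± 0.12) among the better counted. Their median of 0.15 turned to -0.19 when genes averaging 1 or more counts were tested. Nuclear receptors, factors switched by hormones and metabolites, gave 12 higher and 11 lower of 33 (36.4% and 33.3%). Over all genes 41.6% were called higher and 42.1% lower. The median of the nuclear receptors was 0.03, but -0.15 with genes averaging 1 or more counts and -0.05 within replicates 4 to 6. Ppara, the fatty acid sensor, read 94.9, 217 and 397 against 62.1, 183 and 421 (log2 difference 0.14 ± 0.12 (SE), edgeR adjusted p = 0.251), which did not pass the threshold here and did in 4 of 13 alternatives.

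The clock genes, whose proteins form the feedback loops of the daily rhythm, gave 8 higher and 7 lower of 18 tested. These shares, 44.4% and 38.9%, were near the 41.6% and 42.1% of all genes. No member was free of overlap, where 3.51% of all genes lay wholly above and 5.80% wholly below. Overlap was taken over all 6 times together, so a change of level over the day adds to it. Per3, a repressor of the loop, was the highest, at 1.80, 40.7 and 277 in nuclear and 0.339, 7.14 and 34.6 in total RNA (log2 difference 2.49 ± 0.20 (SE), edgeR adjusted p = 1.88e-17). Its nuclear level was 7.02 ± 5.77 CPM (mean ± SD, n = 6) at ZT2 and 144 ± 77.7 at ZT10, and its total level was 1.34 ± 0.968 and 28.0 ± 4.08. Nr1d2, the REV-ERB beta repressor, was the lowest, at 0.450, 9.32 and 46.1 against 3.62, 33.3 and 120.3 (log2 difference -2.12 ± 0.17 (SE), edgeR adjusted p = 5.81e-18). It stood at 25.9 ± 10.8 in nuclear and 107 ± 11.8 in total RNA at ZT10, and at 2.53 ± 1.72 and 10.04 ± 4.82 at ZT22. Thus both fractions of both genes were higher at ZT10 than at the other time given. Tef, an output factor with the most counts, differed by 0.48 ± 0.10 (edgeR adjusted p = 6.06e-06). Arntl, Cry2 and Per1, named after their values were seen, differed by 2.26 ± 0.18, 1.79 ± 0.09 and 1.57 ± 0.16.

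Enzymes of drug and steroid metabolism were more often lower, with 55 lower and 22 higher of 110 tested and a median of -0.40. Cyp2a5, which hydroxylates coumarin, read 6.37, 32.6 and 179.6 against 69.8, 261 and 731 (log2 difference -2.70 ± 0.17 (SE), edgeR adjusted p = 5.76e-23), and Cyp2c39 at the other end read 3.91, 20.7 and 91.5 against 0.706, 2.54 and 5.57 (log2 difference 3.55 ± 0.22 (SE), edgeR adjusted p = 1.13e-22). Cyp2e1, the ethanol-inducible enzyme with the most counts, read 722, 1726 and 3837 against 1089, 2272 and 3496 (log2 difference -0.38 ± 0.11 (SE), edgeR adjusted p = 0.00116). All 3 overlapped, and these genes form families of close paralogs that may share reads. Within replicates 1 to 3 the Cyp2e1 call was lost (log2 -0.17, edgeR adjusted p = 0.287).

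The 4 liver mRNAs listed as retained in the nucleus were all higher there. Mlxipl, the glucose-sensing factor ChREBP, read 121, 305 and 664 in nuclear and 63.0, 99.5 and 151 in total RNA (log2 difference 1.67 ± 0.11 (SE), edgeR adjusted p = 4.04e-24). Nlrp6, a cytoplasmic immune sensor, read 86.4, 165 and 369 against 27.7, 57.7 and 73.7 (log2 difference 1.59 ± 0.09 (SE), edgeR adjusted p = 6.18e-26), with no overlap. Gcgr, the glucagon receptor, read 85.9, 150.1 and 254 against 43.1, 83.2 and 102 (log2 difference 0.91 ± 0.08 (SE), edgeR adjusted p = 4.91e-17). Genes without introns were mixed, with 4 higher and 4 lower of 13 (30.8% each), beside 41.6% and 42.1% of all genes. Rraga, a GTPase that signals amino acids to mTORC1, read 1.03, 5.80 and 15.8 against 113, 163 and 228 (log2 difference -4.77 ± 0.15 (SE), edgeR adjusted p = 4.99e-40), the widest fall of any protein-coding gene named. Sox4 read 8.42, 18.4 and 31.9 against 1.62, 4.62 and 8.92 (log2 difference 1.97 ± 0.11 (SE), edgeR adjusted p = 6.32e-26), and Cebpa, a main hepatocyte factor, read 84.7, 171 and 255 against 105, 157 and 244 (log2 difference 0.10 ± 0.07 (SE), edgeR adjusted p = 0.192), which did not pass the threshold here and did in 5 of 13 alternatives, among them the fit without total replicate 4 at ZT2 (0.14, edgeR adjusted p = 0.0497).

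Over protein-coding genes, 4236 of 10356 tested were higher and 4371 lower. With the same limits as for the long noncoding RNAs, the largest rise was in Taok2, a kinase of the MAP kinase cascades, at 76.2, 267 and 566 against 3.81, 18.2 and 33.3 (log2 difference 3.86 ± 0.13 (SE), edgeR adjusted p = 7.47e-38). Cnot3, a subunit of the main deadenylase complex, read 42.5, 119 and 362 against 3.61, 13.7 and 17.2 (log2 difference 3.27 ± 0.13 (SE), edgeR adjusted p = 4.77e-35). Gigyf1, an adaptor of translational repression, read 33.3, 60.2 and 185 against 3.99, 8.06 and 12.7 (log2 difference 3.08 ± 0.12 (SE), edgeR adjusted p = 1.77e-36). None of these overlapped. The others were Eno1, Sbno2, Mical3, Shroom3 and Akap8l, at log2 differences of 3.22, 2.99, 2.94, 2.93 and 2.89, and Eno1 has a near-identical copy that may share its reads. The largest falls after Rraga were in Slirp, a stabilizer of mitochondrial mRNA, at 1.47, 4.82 and 9.49 against 35.6, 57.6 and 65.9 (log2 difference -3.55 ± 0.10 (SE), edgeR adjusted p = 7.14e-44), Rps7, Cox7b and Atp5j, an ATP synthase subunit (-3.35 ± 0.12). Acp1, Hist1h2bc and Npm1, the nucleolar chaperone, followed at -3.28, -3.25 and -3.21. Fabp1, the liver fatty acid carrier, was named after its value was seen and read 178, 559.8 and 1098 against 1699, 5426 and 6874 (log2 difference -3.12 ± 0.11 (SE), edgeR adjusted p = 6.00e-39), with every nuclear library below every total library.

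The nuclear to total ratio did not pass the test for a dependence on time of day in any of the 11864 genes (0%, edgeR F test of the fraction by time interaction). At an unadjusted p under 0.05 there were 199 genes, or 1.68%, and the smallest adjusted p was 0.9999. If no ratio changed, about 1 in 20 genes would be expected there, so the test may be too strict here. The smallest unadjusted p values belonged to Ints6, Rpl9-ps7 and Hist2h3c1, at 0.000480, 0.000563 and 0.000672. Without total replicate 4 at ZT2 there were 173 genes under 0.05 unadjusted, and over all 8 alternatives 105 to 396, with 0 passing in each. The 396 genes (3.34%) and the smallest adjusted p, 0.472 (edgeR F test), came from the fit with same-numbered libraries as pairs. By time, the list medians ran from -1.30 to -0.80 for ribosomal proteins, from -1.04 to -0.71 for the respiratory chain, and from 0.48 to 0.66 for chromatin regulators. Those of the clock genes (-0.19 to 0.48), erythroid markers (-0.94 to 0.08) and nuclear receptors (-0.08 to 0.11) changed sign between times. A p that misses the threshold does not show that the ratio was the same at all times.

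Markers of the liver's cell types did not all move together. In bulk RNA, fewer cells of a type and less RNA per cell cannot be told apart. Over all genes 41.6% were called higher and 42.1% lower, and hepatocyte markers, at 40% each, were near that. Of 10 hepatocyte markers 4 were higher and 4 lower, and their summed share was 5.44 ± 1.07% in nuclear and 7.49 ± 1.18% in total RNA. Alb is itself among the 10. With Alb left out of both the sum and the total, and the mitochondrial genes out of the total, the share was 0.609 points higher in nuclear RNA. Sinusoidal endothelial markers gave 8 higher and 5 lower of 14, from Stab1 (1.94 ± 0.09) and Stab2 (1.26 ± 0.07), scavenger receptors, to Lyve1 (-1.26 ± 0.11), and held 0.0404 to 0.104% of nuclear and 0.0356 to 0.0515% of total counts. These 3 genes were named after their values were seen. Kupffer cell markers gave 4 higher and 6 lower of 12, at 0.0169 to 0.0940% and 0.0216 to 0.120% of counts. Stellate cell markers gave 6 higher and 4 lower of 12, at 0.0303 to 0.0912% and 0.0453 to 0.0769%. Of 5 tested erythroid markers 2 were lower and none higher, at 0.0437 to 0.569% and 0.0546 to 1.31% of counts. Hbb-bs, a beta globin, read 45.0, 155.1 and 804 against 202, 787 and 3641 (log2 difference -2.20 ± 0.20 (SE), edgeR adjusted p = 2.07e-15), and Hba-a1, an alpha globin, read 273 against 480.4 in the medians (log2 difference -0.54 ± 0.27 (SE), edgeR adjusted p = 0.0593), which did not pass the threshold. Without total replicate 4 at ZT2 the difference for Hba-a1 was -0.55 (edgeR adjusted p = 0.0388), and it passed in 6 of 13 alternatives. Cholangiocyte markers (3 tested) and those of lymphocytes and neutrophils (4 tested) held at most 0.00585% and 0.0104% of any library. The part of cell composition in the differences above was not tested.

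The site table shows at which places within a gene reads were counted, for 86780 sites in all and 29199 in the authors' filtered list. Sequences around the sites were not at hand. Whether a site is a transcript end or a run of A inside an RNA, which such a kit may also prime, was therefore not tested. In the filtered list, sites at an annotated gene end (within 100 bp) held 50.8 ± 3.20% of nuclear and 46.1 ± 1.77% of total counts (mean ± SD, n = 36, permutation test, adjusted p = 2.00e-05). Sites more than 1000 bp before the end held 12.6 ± 1.93% and 12.7 ± 0.846% (adjusted p = 0.82, permutation test). Of the counts in that list placed in a single gene, sites over 100 bp past the end held 4.68% in nuclear and 9.80% in total RNA. Such shares sum counts, so genes with many counts weigh most. They do not give the direction of a typical gene: in the 2491 genes compared below, the median log2 ratio of the end sites was -0.48. Which genes carried the shares was not tested. Over all sites the picture was another: those far before the end held 21.3 ± 4.38% and 15.3 ± 1.18% (permutation test, adjusted p = 2.00e-05), and those at the end 40.8 ± 4.94% and 41.9 ± 1.79% (permutation test, adjusted p = 0.22). Thus the nuclear excess inside genes appeared when sites outside the filtered list were counted. The criterion of that filter is not given in the sources used here.

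Per gene this was wide. In 2491 genes averaging 10 or more counts both at the end and more than 1000 bp before it, the median log2 nuclear to total ratio was -0.48 for the end sites and 0.85 for the internal sites. The internal ratio was above the end ratio in 1931 of them, or 77.5%. In 1105 genes the end was lower and the inside higher in nuclear RNA, and in 173 the reverse. Internal sites could meet the limit of 10 counts through 1 fraction alone, so part of the direction may be set by the filter. How far these ratios depend on which sites are counted was not tested. Matrix enzymes gave medians of -1.36 at the end and 1.11 inside over 35 genes, and enzymes of drug and steroid metabolism -0.56 and 0.87 over 47. Liver transcription factors gave -0.31 and 1.21 over 46, and plasma proteins -0.03 and 0.77 over 65. Cytosolic ribosomal proteins and the respiratory chain were lower in both places, at -0.95 and -1.64 over 19 genes and at -0.70 and -1.24 over 34. Bckdha differed by 1.09 at its end and 3.54 inside. For Ppara the internal sites summed to a mean of 1151 CPM in nuclear and 358 in total RNA, above its gene level of 217 and 183, so the gene and site tables count differently.

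**Figure D4:**
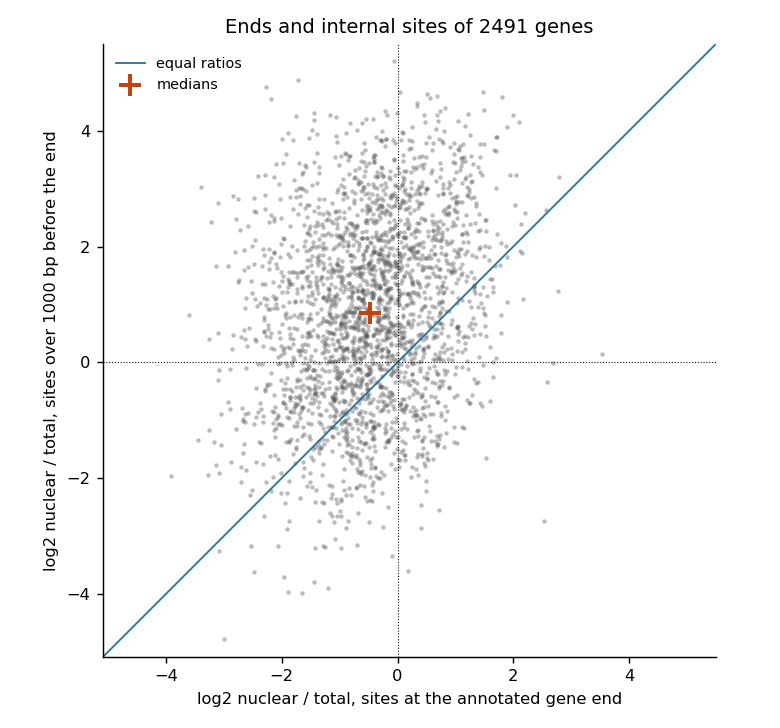
Log2 nuclear to total ratio of sites within 100 bp of the annotated gene end (x axis) against that of sites more than 1000 bp before it (y axis), 1 point for each of 2491 genes, with the line of equal ratios and a cross at the medians (-0.48 and 0.85). Most points, 1931, lie above the line.

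The share of a gene's reads at each site, its usage, was tested for 9803 sites of 3173 genes with 2 or more sites of at least 5% of the gene's counts. Of these, 3512 (35.8%) had higher and 4215 (43.0%) lower usage in nuclear RNA. Among 1567 sites more than 10000 bp before the annotated end, 700 were higher and 581 lower, and 236 rose by at least 20 percentage points against 72 that fell by as much. Among 2787 sites within 100 bp of the end these last counts were 207 and 307, and over all 9803 sites they were 809 and 694. Among the 4540 sites more than 1000 bp before the end calls were near even, at 1788 higher and 1835 lower, and the 20-point counts were 488 and 234. The 8 genes with the widest difference by the naming rule include 5 whose site lies more than 10000 bp before the end.

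Pid1, a membrane-trafficking adaptor, had the widest difference, at a site 246930 bp before its annotated end (chr1:84283223-84283256, mm10). That site held 59.0, 87.4 and 95.2% of the gene's counts in nuclear and 0.690, 5.54 and 15.2% in total RNA (lowest, median and highest, log2 usage difference 3.89 ± 0.11 (SE), edgeR adjusted p = 1.27e-40). The end site of Pid1 read 8.43, 15.7 and 35.4 CPM in nuclear and 64.9, 116 and 161 in total RNA, and another internal site, 219112 bp before the end, read 22.8, 112 and 244 against 1.67, 6.31 and 12.5. No libraries overlapped at any of these 3 sites, and at gene level Pid1 differed by only 0.71 ± 0.09. Ssu72, a phosphatase of the RNA polymerase II tail, had a site 19232 bp before the end (chr4:155714595-155714647) with 57.3, 79.8 and 87.3% against 3.24, 12.5 and 17.0% (log2 usage difference 2.65 ± 0.06 (SE), edgeR adjusted p = 4.28e-44). Sfpq, a paraspeckle protein, had one 23023 bp before (chr4:127027965-127028078) with 51.6, 71.8 and 87.7% against 2.11, 9.35 and 15.5% (log2 usage difference 2.94 ± 0.08 (SE), edgeR adjusted p = 6.39e-41). Zfp445, a zinc finger repressor of imprinted loci, had one 16771 bp before (chr9:122865681-122865760) with 34.6, 72.1 and 88.8% against 0.717, 9.19 and 16.9%. Pik3r1, the regulatory subunit of PI3 kinase, had one 74855 bp before (chr13:101755616-101755690) with 50.9, 74.4 and 87.0% against 10.8, 17.8 and 32.5%. In all 5 genes every nuclear library lay above every total library.

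The other 3 differed near the end of the gene. Cnbp, an RNA-binding protein, used the site at its annotated end (chr6:87842611-87842660) for 23.5, 63.2 and 79.8% of counts in nuclear and 1.601, 5.34 and 8.73% in total RNA (log2 usage difference 3.51 ± 0.10 (SE), edgeR adjusted p = 1.37e-39). That site read a mean of 17.6 against 4.79 CPM, while the main site of total RNA, 545 bp before the end, read 6.42 against 65.4. At that second site every nuclear library lay below every total library. Pdia3, a disulfide isomerase of the endoplasmic reticulum, had a site 696 bp before the end (chr2:121437921-121437991) with 53.7, 84.0 and 95.3% against 14.1, 28.3 and 47.1%. For Eif4a2 it was the site 180 bp before its end (chr16:23113746-23113952) that fell in share, at 1.14, 5.59 and 11.9% in nuclear against 43.3, 62.6 and 82.4% in total RNA.

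**Figure D5:**
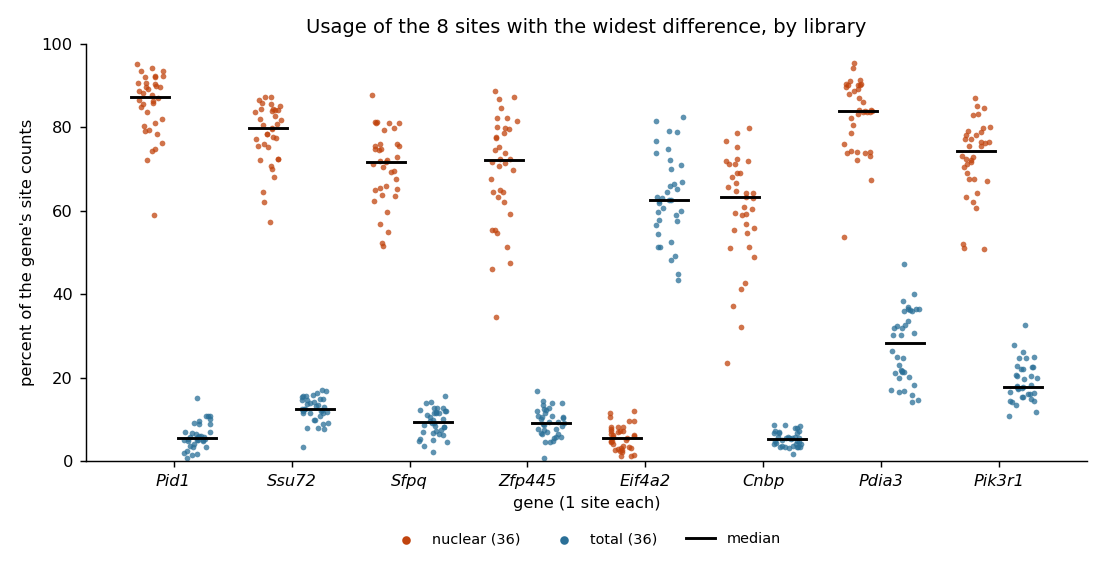
Percent of a gene's site counts (y axis) at 1 site in each of 8 genes (x axis) in each of the 36 nuclear and 36 total libraries, with bars at the medians. The fractions overlap at none of the 8 sites: for Cnbp, the lowest nuclear library is at 23.5% and the highest total library at 8.73%.

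The Eif4a2 site that gained the share overlaps Snora81 in the intron (chr16:23110817-23110847, 3285 bp before the end). It read 157, 587 and 2509 CPM in nuclear and 13.6, 39.1 and 75.3 in total RNA, while the Eif4a2 site near the end read 16.6, 37.2 and 59.8 against 56.8, 77.4 and 116. The gene Eif4a2 read 217, 655 and 2582 against 94.9, 124.5 and 154 (log2 difference 2.59 ± 0.13 (SE), edgeR adjusted p = 3.36e-29). In nuclear RNA the gene rows of Snora81 and Eif4a2 were both close to this intronic site, so they probably count the same reads. The rise of the Eif4a2 row was not seen at its site near the end. In all, 26 sites of 20 host genes with a mean of at least 1 CPM overlapped a snoRNA listed by RefSeq, and all 26 had a higher mean in nuclear RNA. The median ratio of the means was 14.96, from 4.42 to 29.4, and at 11 of the 26 every nuclear library lay above every total library. A site could meet the limit of 1 CPM through its nuclear level alone, as in Rock2 (means of 4.66 against 0.264 CPM). For such sites the direction was partly set by the filter, and these counts were not tested. Of 19 sites over other RNA entries of that class 10 had a higher nuclear mean, and 0 lay wholly above. These entries are not all small. The Mycbp sites among the 19 lie in D130007C19Rik (chr4:123902074-123917449), and all of them had a lower nuclear mean, with ratios from 0.139 to 0.601. These 19 sites are therefore no set of small RNAs to hold against the snoRNA sites. The site in Rpl27a (chr7:109521351-109521413) read 34.7, 102 and 487 against 1.203, 4.77 and 17.1, although the gene Rpl27a was lower in nuclear RNA (-0.86 ± 0.07). A site in Odc1, the rate-limiting enzyme of polyamine synthesis (chr12:17546208-17546239), read 66.9, 198 and 1093 against 3.21, 17.95 and 92.9, where the gene differed by -0.93 ± 0.12. The site in Srcap over Snora30 (chr7:127527946-127528003) read 46.0, 120.3 and 444 against 1.002, 7.20 and 22.5, where the gene differed by 1.45 ± 0.12. The gene row of Snora30, given above, had nearly the levels of this site. The fractions overlapped at the Odc1 site and not at those of Rpl27a and Srcap. Rpl27a, Odc1 and Srcap were named after their values were seen.

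Malat1 and Neat1 differed by site. All 11 Neat1 sites with at least 2 CPM had a higher mean in nuclear RNA, with ratios of the means from 2.61 to 53.7. Of 13 such Malat1 sites 8 did. The Malat1 site 312 bp before the annotated end (chr19:5796002-5796031) read 34.5, 73.5 and 583 CPM in nuclear and 0, 2.85 and 7.47 in total RNA. A site 4841 bp before the end (chr19:5800531-5800583) read 50.3, 196 and 1107 against 2.005, 11.7 and 18.7. Neither overlapped. The 2 sites with the most counts in total RNA, 6002 and 6747 bp before the end, went the other way, at means of 401 against 818 and of 241 against 581 CPM. Thus the small difference of the Malat1 gene sums sites of opposite direction. Alb went the same way as the medians over genes: its main site, 193 bp past the annotated end, read a mean of 19053 in nuclear and 47948 in total RNA, and a site 6966 bp before the end 451 and 187. Mlxipl had a higher nuclear mean at all 11 of its sites with at least 2 CPM, among them the site 1825 bp before its end, at 97.6, 232 and 449 against 49.4, 77.8 and 116, with overlap. Taok2 read 55.0, 219.7 and 492 against 1.80, 10.002 and 23.8 at its main site, 3874 bp before the end, and 5.94, 10.5 and 23.5 against 1.002, 2.97 and 5.39 at the end itself, with no overlap at either.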

How the data were processed

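Poly(A)-primed 3′ end libraries of 36 nuclear and 36 total RNA samples were used, as raw counts per gene and per polyadenylation site deposited by the authors. Per the submitters' processing notes, STAR 2.4.2a, HOMER and edgeR were used with mm10 (GRCm38.p5). How counts were assigned and whether strand was used is not given in the sources used here. Library depth is given with the results. Of 51912 gene rows, 11864 averaged 10 or more counts. They were fitted with edgeR 4.0.16 (R 4.3.3, TMM, quasi-likelihood test, 12 groups of fraction and time), with the mean nuclear minus the mean total as contrast and Benjamini-Hochberg adjustment. Site usage was fitted with the log gene total as offset, for sites of at least 5% in genes averaging 50 or more. Shares of counts were compared by a 2-sided permutation test (100000 resamples, fraction exchanged within time, adjusted over 32 classes and lists, or over 4 positions), where 1e-05 is the smallest p it can give. Classes came from RefSeq by symbol or synonym, and 16338 gene rows had no match. The scripts were tested on simulated data. Alternatives were other scaling (RLE, none), filters, DESeq2 1.42.0, the replicate block, the replicate number as a factor, replicate sets, thinning and libraries left out, the last chosen after seeing the data. Named genes were those listed always, the highest, lowest and most counted member of each list (averaging 50 or more counts), the largest differences of each class (averaging 100 or more, in 1 direction at all times), the smallest p for time and the 8 widest site differences. Some genes of the rule are not reported here. Other names were chosen after their values were seen. The members and lists were chosen with earlier results of these data known.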

Additional observations from a re-analysis of the deposited data

Results flagged for a closer look

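Of 120 groups of 6 libraries, 10 (8.33%) held a library whose gap to the next exceeded Dixon's 95% critical value for its share of the group's range, where chance gives about 1 in 20. Nuclear replicate 1 at ZT2 was such a library for 3 shares: protein-coding genes took 54.4% of its counts (next 72.2%), pseudogenes, Gm42418 among them, 30.0% (next 11.9%), and small RNA genes 1.502% (next 0.641%). Small RNA genes also took 1.13% in nuclear replicate 3 at ZT18 (next 0.633%). Total replicate 4 at ZT18 had 69.8% in protein-coding genes (next 73.0%) and 19.4% in the mitochondrial class (next 16.6%). Total replicate 4 at ZT22 had 19.7% in the mitochondrial class (next 16.6%). Genes not matched to RefSeq took 4.19% in nuclear replicate 4 at ZT22 (next 6.10%). Sites not placed in a single gene took 26.4% in nuclear replicate 4 at ZT10 (next 24.4%) and 26.3% in total replicate 1 at ZT2 (next 24.95%).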

How the results depend on the processing

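No named gene reversed in 1465 alternative values: 1437 kept direction and side of the threshold, 13 lost the call and 15 gained it (Cebpa, Cyp2e1, Hba-a1, Malat1, mt-Co1, Ppara, Rpl6 and Xist). All 56 values of the named sites kept both. With genes averaging 1 or more counts, 3614 were at least 2-fold higher and 3425 lower. With 50 or more, 6382 were called, 3164 higher and 3218 lower, and 1237 and 1277 at least 2-fold, among fewer genes tested. Thinned to the shallowest library, 6599 were called, 3207 lower and 1419 at least 2-fold lower. Site usage in genes averaging 200 or more counts gave 3073 calls, 1423 higher and 1650 lower. The labels do not tie same-numbered libraries, which correlated at a mean r of 0.278 over 36 pairs (0.00986 to 0.631), 33 of them over 0.1 and 26 highest for their own number. The 2 libraries with high Xist also share their number and time. With the replicate block 10148 genes were called, 4954 higher and 5194 lower. With it Hba-a1 (-0.75, edgeR adjusted p = 0.00298) and Ppara (0.17, 0.0289) gained the call and mt-Co1 (0.18, 0.0653) lost it, and 396 genes (3.34%) had an unadjusted p under 0.05 for time, of which 0 passed. Without the Xist pair 9894 genes were called, and without the 2 shallow nuclear libraries 9942. Differences of shares are in percentage points, nuclear minus total. In the block of 36 pairs, erythroid (-0.0663), lymphocyte and neutrophil (-0.000786), nuclear receptor (0.01003) and stellate (-0.00486) shares passed the threshold. Over genes averaging 10 or more counts, lymphocyte and neutrophil markers (-0.00106) and nuclear receptors (0.0105) did. Alb and the mitochondrially encoded genes were also left out, both of the total and of any class or list that holds them, as hepatocyte markers hold Alb. Hepatocyte markers (0.609) and snoRNA hosts (-0.00535) then reversed. Protein-coding (-8.30), erythroid (-0.117), lymphocyte and neutrophil (-0.00137) and stellate (-0.0140) shares passed, and clock (0.00545) and Zfp (0.0143) shares no longer did. Without Gm42418 in the total and in the pseudogene class, protein-coding (5.37) and pseudogene (-1.84) shares reversed and nuclear receptors (0.0269) passed. Within replicates 1 to 3, cholangiocyte markers (0.000198), clock genes (0.00647), nuclear long noncoding RNAs (0.0842) and Zfp genes (0.0198) were lost, and lymphocyte and neutrophil (-0.00180) and stellate (-0.0122) markers gained. Within replicates 4 to 6, immunoglobulin segments (0.00173) and nuclear receptors (0.0204) gained, and without the Xist pair stellate markers (-0.00558). Over all sites, shares at the end (-1.11) and more than 1000 bp before it (6.07) reversed, and sites not placed passed (0.587). The cause of these changes was not tested. Thinning left 8629 genes to test, which is what the shallowest library allows.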
